A study of Equus caballus with 8 samples.

Results

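The genes of the oxidative phosphorylation complexes were followed in BM-MSCs of the horse, with and without transforming growth factor-β2 (TGF-β2). BM-MSCs are mesenchymal stem cells from bone marrow, a stromal culture that attaches to plastic and expands there. Members were all rows whose gene symbol begins with NDUFA, NDUFB, NDUFC, NDUFS, NDUFV, UQCR, COX4 to COX8 or ATP5, together with SDHA, SDHB, SDHC, SDHD and CYC1. The rule found 78 of the 15266 named genes. Of these, 66 encode subunits of the 5 complexes: 35 of complex I, 4 of complex II, 4 of complex III, 6 of complex IV and 17 of complex V. The other 12 are 8 assembly factors of complex I (NDUFAF1 to NDUFAF8), COX7A2L and NDUFA4L2 beside complex IV, and ATP5IF1 and ATP5S beside complex V. The subunits encoded by mitochondrial DNA were not analysed here, so every value concerns nuclear transcripts.

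RNA was sequenced from cultures of 4 horses, D, J, L and W. Each horse's marrow was divided, and 1 part was grown untreated while the other received 1 ng/ml recombinant human TGF-β2 from isolation until passage 3 or 4 (the study's methods give the exposure as 3 passages). Both arms were grown in the same low-glucose DMEM with fetal bovine serum and, according to the study's methods, basic fibroblast growth factor. No horse had a repeat culture in either arm, so the test measures the spread of the treatment difference among 4 horses.

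The complexes sit in the inner mitochondrial membrane. Complex I takes electrons from NADH and complex II takes them from succinate, both pass them to ubiquinone, complex III hands them on to cytochrome c, and complex IV transfers them to oxygen. Complexes I, III and IV pump protons, and complex V uses the returning protons to make ATP. Complex II is also an enzyme of the tricarboxylic acid cycle, and it is the complex with no subunit encoded by mitochondrial DNA. Cultured stromal cells draw ATP from glycolysis as well as from this chain.

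Each library held 39184554 to 57228675 counted reads. Values are normalized counts, in which every library's gene counts were divided by its own size factor. A gene was tested when 4 of the 8 libraries or more reached 10 normalized counts, and all 78 members passed. The lowest number of reads for any member in any library was 177. Changes are log2 differences of normalized count + 1, treated minus untreated, from limma with the horse as a block. A member was called when its Benjamini-Hochberg adjusted p over all 14907 tested genes was below 0.05. Of the 8 stromal markers listed, 7 were in the table and tested. The lowest of these, NT5E, had 1609 to 3574 normalized counts in untreated and 1787 to 3153 in treated libraries. Of the 7, 1 was called higher and 3 lower, where 30.9% of all tested genes were called. THY1, called lower at -2.21, had 24238 to 199820 normalized counts in untreated and 7344 to 37850 in treated libraries. Of the 8 hematopoietic markers tested 2 were called, both lower. The summed level of these 8 ran from 709 to 2950.2 in untreated and from 543 to 959 in treated libraries. The sum was highest in the untreated library of horse J, where CD68 made up 2437 of it and PTPRC 109.7. CD3E did not pass the filter and is not in this sum. It had 111.8 normalized counts in the untreated library of horse J and 16.2 in that of horse W. In the other untreated and in the 4 treated libraries CD3E had 0 reads, which allows up to 3.60 normalized counts at a floor of 3 reads. In bulk RNA, fewer cells of a kind and less RNA per cell cannot be told apart.

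Of the 78 members, 11 were called, 10 lower and 1 higher after TGF-β2 treatment, which is 14.1% of the members where 30.9% of all tested genes were called, 15.7% higher and 15.3% lower. Those called lower included NDUFV3, NDUFV1, NDUFB3 and NDUFA10 of complex I, the assembly factor NDUFAF3, SDHD and SDHA of complex II, NDUFA4 of complex IV, and ATP5S. The assembly factor NDUFAF2 was the member called higher. The sizes of the 11 called log2 changes lay between 0.30 and 0.87, and each had the same sign in all 4 horses. With the study's additional threshold of an absolute log2 change over 1, limma and edgeR's quasi-likelihood test called 0 members where limma called 14.1% of all tested genes. At that threshold edgeR called 13.8% and DESeq2 with the horse 15.7% of all genes. DESeq2 called 1 member there, and at an unadjusted p below 0.05 limma placed 1 there, NDUFA4L2 in both cases. The treated and untreated libraries did not overlap for 8 of the 78 members, or 10.3%, against 27.8% of all tested genes.

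Other tests were run on the same libraries. edgeR with the horse called 10 members, where it called 29.7% of all tested genes, and DESeq2 with the horse called 16, where it called 38.7%. Limma without the block called 6 members, beside 22.8% of all genes, and at an adjusted p below 0.01 limma called SDHD, beside 10.2% of all genes. The share of called members was below that of all genes in each of these cases.

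The calls changed with the horse left out. Leaving out horse W left 0 called members by limma, with 13 at an unadjusted p below 0.05, and leaving out horse D left 1, SDHD, where 9.53% and 10.5% of all tested genes were still called. NDUFV1, NDUFV3, SDHA and SDHD were called both without horse J and without horse L, while NDUFA10, NDUFAF3 and NDUFA4 were called in neither case. Without horse J the counts were 6 higher and 6 lower, with 36.8% of all genes called, and without horse L they were 1 higher and 6 lower, with 20.6%. When libraries were scaled to equal totals, limma called 47 members lower, with 35.2% of all genes called lower, and 0 higher (1 at an unadjusted p below 0.05), and the all-gene counts went from 2334 higher and 2276 lower to 1192 higher and 5244 lower. That scaling moved the median of all genes by -0.30, and changes are therefore read relative to the median gene. With FN1, COL1A1 and COL1A2 left out of the totals, 24 members were called lower, beside 23.5% of all genes. These 3 matrix genes together made up 0.881% to 6.27% of reads in untreated and 10.3% to 14.4% in treated libraries, and the share of reads from the 66 subunits was 0.484% to 0.789% in untreated and 0.386% to 0.540% in treated libraries.

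**Figure D1:**
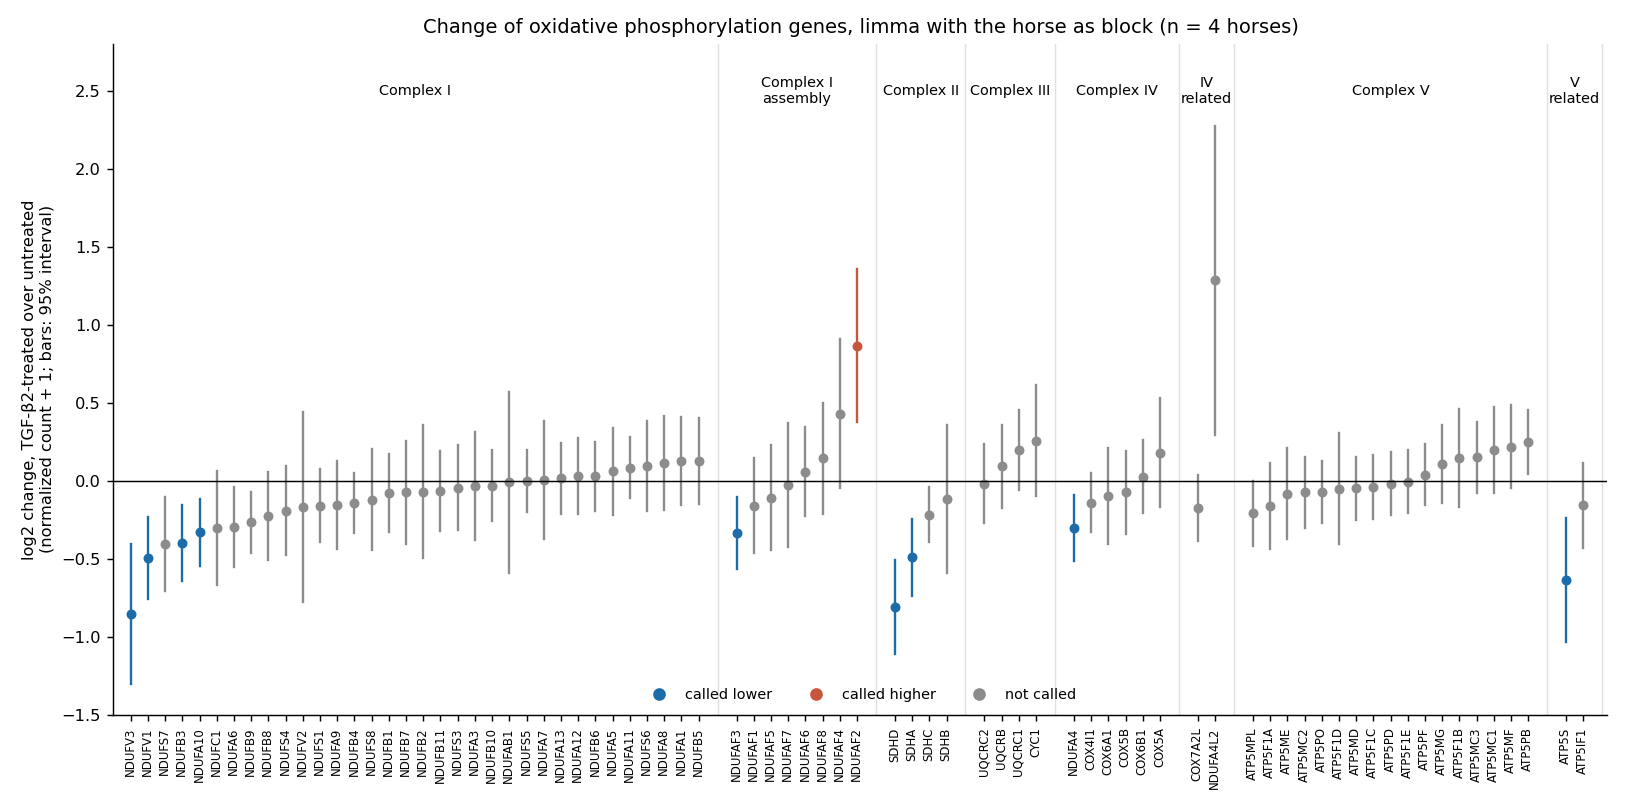
Log2 change after TGF-β2 treatment of the members, ordered within its complex, with the 95% interval from limma with the horse as a block (4 horses). Members called lower are blue and NDUFAF2, called higher, is red. Most intervals include 0.

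Differences over the complexes were small. The median log2 change was -0.07 for the subunits of complex I, -0.35 for complex II, 0.15 for complex III, -0.09 for complex IV and -0.02 for complex V, beside 0.01 for all tested genes. Of the 66 subunits 43 had a change below 0, or 65.2%, against 49.5% of all genes. The median size of the change, ignoring its sign, was 0.12 over the subunits and 0.35 over all tested genes. With libraries scaled to equal totals the median of complex III turned to -0.17. Relative to the median gene the medians were -0.08, -0.36, 0.14, -0.09 and -0.03 for complexes I to V. Scaling multiplies all genes of a library by the same factor, so these distances could hardly change and are no check of the medians.

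The horses did not contribute alike. The median difference of complex I was -0.12 in horse D, -0.35 in J, -0.02 in L and 0.10 in W. Complex II was the complex whose median was below 0 in all 4 horses, at -0.32 in D, -0.78 in J, -0.30 in L and -0.31 in W. For complex III the horses gave 0.17, -0.20, 0.21 and 0.33, so that horse J differed in sign from the others. Complex IV gave -0.11, -0.31, 0.06 and 0.13, and complex V gave -0.02, -0.16, 0.11 and 0.12, in the same order of horses. The medians of all tested genes were 0.00, 0.00, 0.01 and -0.01. Without horse J the medians of complexes I, IV and V were 0.03, 0.03 and 0.03, above 0, and those of complexes II and III were -0.31 and 0.24.

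**Figure D2:**
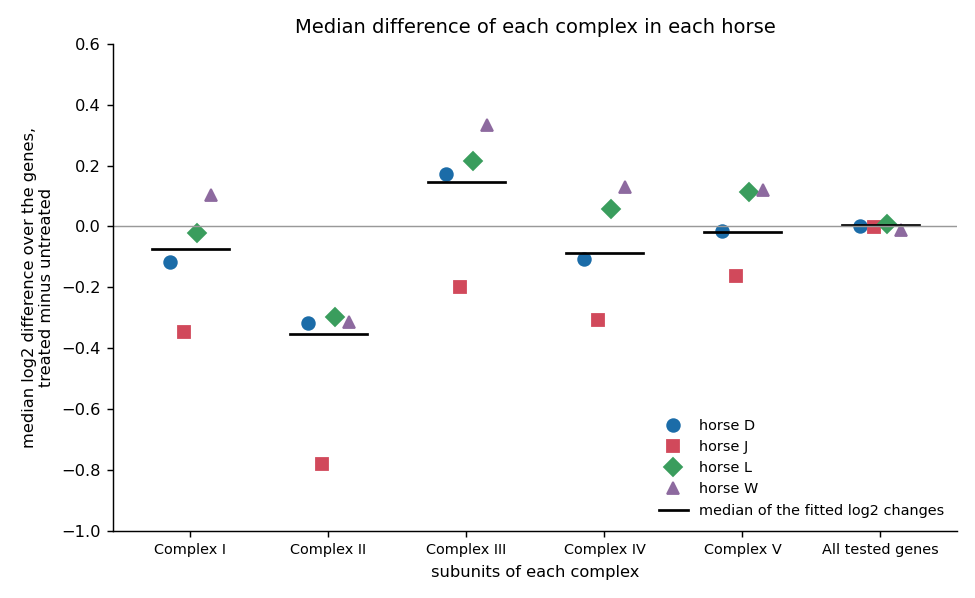
Median log2 difference (treated minus untreated) over the subunits of each complex and over all tested genes, 1 point for each horse, with a bar at the median of the fitted changes. Horse J lies lowest in all 5 complexes, complex II lies below 0 in all 4 horses, and the points of all tested genes lie at 0.

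The untreated library of horse J stood apart. It held the highest of the 4 untreated values for 62 of the 66 subunits, or 93.9%, against 35.0% of all tested genes. The difference between treated and untreated cells was lowest in horse J for 55 of the 66 subunits, or 83.3%, against 33.7% of all genes. In horse J 64 subunits had a difference below 0, compared with 42 in D, 29 in L and 21 in W. The standard deviation of log2 values among treated libraries was smaller than that among untreated libraries for 61 of the 66 subunits, or 92.4%, against 65.9% of all genes. The same library was highest of the untreated ones for 18 of 18 proliferation genes, whose summed level was 52946 there, 16282 to 28480 in the other untreated libraries and 12741 to 49165 in treated ones. It was also highest for 66 of 73 mitochondrial ribosomal proteins and for 13 of 13 enzymes of the tricarboxylic acid cycle. The part of proliferation or of other cells in the subunit levels was not tested.

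**Figure D3:**
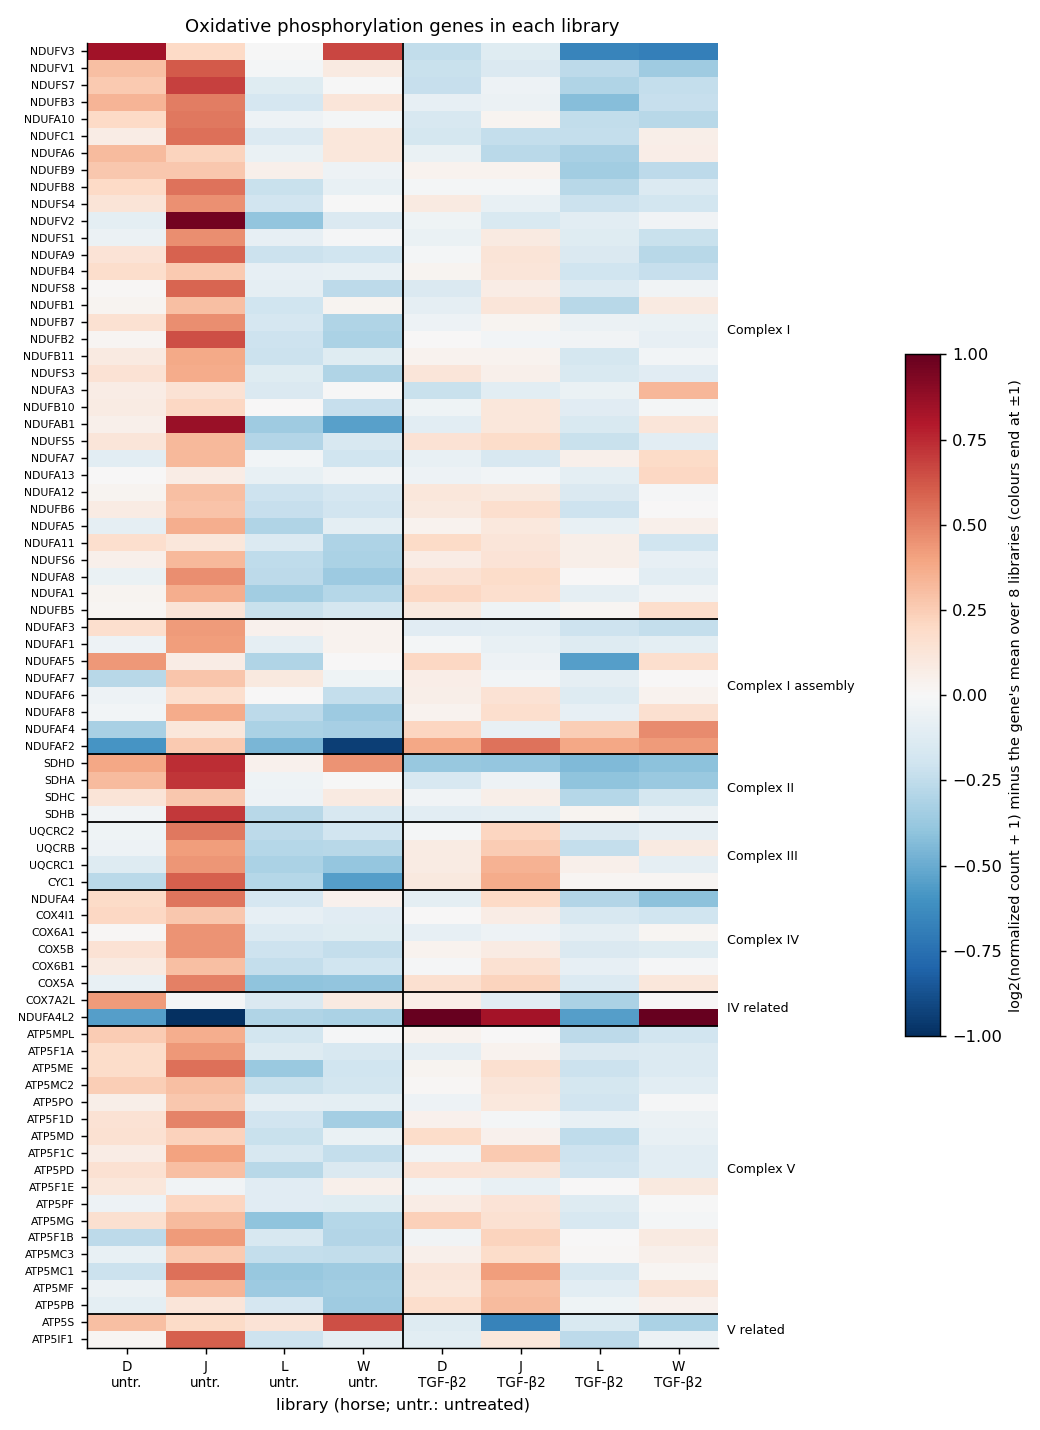
Log2(normalized count + 1) of members minus their own mean over the 8 libraries (untr., untreated), with members grouped by complex and ordered by their change within it, and colors ending at -1 and 1. The untreated column of horse J is red for most members of every complex, and the rows of SDHA and SDHD turn from red or near 0 in untreated to blue or near 0 in treated libraries.

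Complex I oxidizes NADH. Of its 35 subunits 5 were called, or 14.3%, all lower, where 30.9% of all tested genes were called and 15.3% were called lower. The changes ran from -0.85 to 0.12. The median change of the 7 nuclear-encoded core subunits, which include those that carry the cofactors, was -0.17, and that of the 28 accessory subunits was -0.05. Without horse J these medians were -0.09 and 0.04. Without D, L and W the core median was -0.24, -0.32 and -0.26 and the accessory median -0.02, -0.08 and -0.13.

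NDUFV1, the core subunit that binds NADH and its flavin, had 2997, 3731, 2402 and 2593 normalized counts in the untreated libraries of horses D, J, L and W. The treated libraries of the same horses had 2087, 2205, 2030.2 and 1901. All treated values lay below all untreated ones. NDUFV1 fell by 28.9% (log2 change -0.49, standard error 0.11, limma adjusted p = 0.0216). Its partners at the electron entry did not pass the test. NDUFV2, an iron-sulfur subunit beside NDUFV1, had 8647 normalized counts in the untreated library of horse J and 3365 to 4308 in the other 7 libraries, so that its change of -0.17 (95% interval -0.78 to 0.44) became 0.15 without horse J. NDUFS1, which carries several iron-sulfur clusters, had a change of -0.16 (interval -0.39 to 0.07).

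NDUFS7, which carries the cluster next to the ubiquinone site, missed the threshold with a change of -0.41 (limma adjusted p = 0.0527) and was called lower by DESeq2 with the horse (adjusted p = 0.0232). NDUFS8 and NDUFS3, also core subunits of the ubiquinone-reducing part, had changes of -0.12 and -0.05, with single-horse differences on both sides of 0.

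NDUFV3, an accessory subunit of the electron-input part, had the largest change among the subunits of the 5 complexes. Its untreated values were 10389 in horse D, 6685 in J, 5804 in L and 9227 in W, and its treated values were 4911, 5338, 3682 and 3619. All treated values again lay below all untreated ones, and horses D and W, with the highest untreated values, had the largest differences. NDUFV3 fell by 44.6% (log2 change -0.85, standard error 0.18, limma adjusted p = 0.0207). Unlike most subunits, it was not highest in the untreated library of horse J, and without horse J its change was -1.03.

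NDUFB3 and NDUFA10, accessory subunits of the membrane arm, were called lower as well. NDUFB3 had 1042, 1175, 736 and 896 normalized counts in untreated and 779, 793, 613 and 705 in treated cells of horses D, J, L and W. The groups overlapped, since the untreated value of horse L lay within the treated range, but all 4 horses had lower treated values. Its log2 change was -0.40 (standard error 0.10), with a limma adjusted p of 0.0320, or 0.121 without the block. NDUFA10 went from 2976, 3731, 2506 and 2553 to 2313, 2632, 2183 and 2135, a log2 change of -0.33 (standard error 0.09). Its limma adjusted p was 0.0373, or 0.134 without the block, and its groups also overlapped. Accessory subunits NDUFB9, with a change of -0.27 (limma adjusted p = 0.0518), and NDUFB4, with single-horse differences from -0.16 to -0.12, were below 0 in all horses without being called by limma, and DESeq2 with the horse called NDUFB9 lower (adjusted p = 0.0164). At the other end, NDUFB5 and NDUFA1 had changes of 0.12 and 0.12, with differences below 0 in horse J.

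The 8 assembly factors NDUFAF1 to NDUFAF8 build complex I and are absent from the finished enzyme. Of these 2 were called, 1 higher and 1 lower, or 25.0%, beside 30.9% of all tested genes. Changes lay above 0 for 4 and below 0 for 4, where 49.5% of all tested genes lay below 0. NDUFAF2, a chaperone of late assembly, had 236, 426, 259 and 185 normalized counts in untreated and 465, 518, 464 and 478 in treated cells of horses D, J, L and W. The groups did not overlap, and the increase was smallest in horse J, at 0.28, where the untreated value was highest. NDUFAF2 was 82.3% higher (log2 change 0.87, standard error 0.20, limma adjusted p = 0.0259). NDUFAF3, which acts early in the building of the ubiquinone-reducing part, went the other way, from 1424, 1701, 1301 and 1296 to 1168, 1173, 1097 and 1072. Its groups did not overlap either, and its log2 change was -0.33 (standard error 0.09), with a limma adjusted p of 0.0433, or 0.0644 without the block. NDUFAF4, known to act together with NDUFAF3, was not called, at 0.43 (limma adjusted p = 0.144). Its differences lay above 0 in horses D, L and W and at -0.19 in J, and without horse J it was called higher (0.63, limma adjusted p = 0.0201).

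Complex II, succinate dehydrogenase, had the lowest median of the 5 complexes. Of its 4 subunits 2 were called, both lower, where 30.9% of all tested genes were called and 15.3% were called lower. SDHD, a membrane anchor that helps to hold heme and ubiquinone, had 2302, 2926, 1807 and 2403 normalized counts in untreated cells of horses D, J, L and W. In treated cells the values were 1348, 1341, 1293 and 1323, with a standard deviation of 24.6 compared with 459 in untreated cells. The groups did not overlap, and the 4 horses, which differed without treatment, had nearly the same level with it. SDHD fell by 43.0% (log2 change -0.81, standard error 0.12, limma adjusted p = 0.00845). Leaving out single horses gave adjusted p-values of 0.0476 without D, 0.00834 without J, 0.0145 without L and 0.0563 without W.

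SDHA, the flavoprotein that oxidizes succinate, had 7505, 9865, 5848 and 6014 normalized counts in untreated and 5400.4, 5813, 4546 and 4666 in treated cells. The highest treated value, that of horse J, lay just below the lowest untreated value, that of horse L. SDHA fell by 28.9% (log2 change -0.49, standard error 0.10), with a limma adjusted p of 0.0180, or 0.0804 without the block. SDHC, the other membrane anchor, had a smaller and even change, between -0.26 and -0.16 in the 4 horses, and was not called (-0.22, limma adjusted p = 0.0699), whereas DESeq2 with the horse called it lower (adjusted p = 0.0206). SDHB, the iron-sulfur subunit, had 1920.3, 3205, 1624 and 1756 normalized counts without treatment and 1829.5, 1841, 1998 and 1883 with it. Its difference was -0.80 in horse J and 0.30 at most in the others, and its change of -0.12 (95% interval -0.59 to 0.35) became 0.11 without horse J. The values of complex II below 0 in all horses were thus those of SDHA, SDHC and SDHD.

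**Figure D4:**
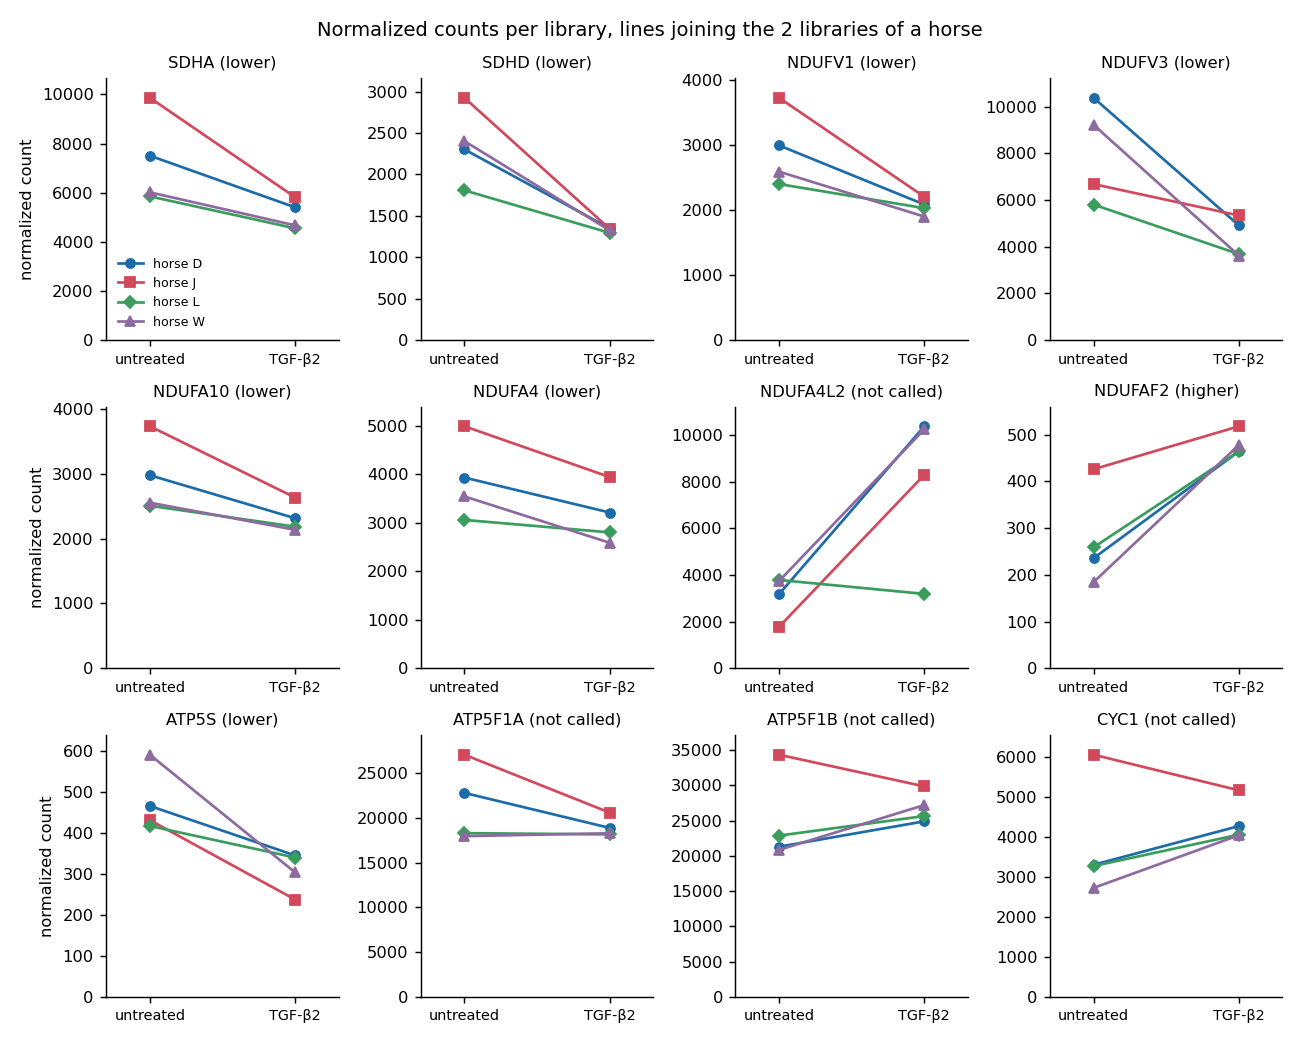
Normalized counts of 12 members in the untreated and TGF-β2-treated library of each horse, with a line joining the libraries of a horse and axes starting at 0. SDHD ends at 1293 to 1348 in all treated libraries, NDUFA4L2 goes up in horses D, J and W and not in L, and the untreated value of horse J is the highest for CYC1, ATP5F1A and ATP5F1B.

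Complex III passes electrons from ubiquinol to cytochrome c. With the deposited normalization and all 4 horses none of its 4 measured subunits was called by limma, by edgeR or by DESeq2, and 0 had an unadjusted p below 0.05 in limma. With libraries scaled to equal totals limma called UQCRC2 lower, at -0.33. CYC1, the cytochrome c1 subunit, had 3297, 6045, 3265 and 2720.1 normalized counts in untreated and 4263, 5156, 4049 and 4034 in treated cells of horses D, J, L and W. Its difference was above 0 in D, L and W and below 0 in J, with a change of 0.26 (95% interval -0.10 to 0.61). UQCRC1, a core protein, had the same arrangement, with a change of 0.20 (interval -0.06 to 0.45). Both were called higher without horse J, CYC1 at 0.42 (limma adjusted p = 0.0214) and UQCRC1 at 0.30 (limma adjusted p = 0.0420). UQCRB, which takes part in binding ubiquinone, had a change of 0.09 (interval -0.17 to 0.36), and the core protein UQCRC2 one of -0.02 (interval -0.27 to 0.23). UQCRFS1 and UQCRH, the Rieske protein and the hinge protein, were not analysed here.

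Complex IV reduces oxygen. Of its 6 measured subunits NDUFA4 was called, lower, where 30.9% of all tested genes were called and 15.3% were called lower. The changes of all 6 ran from -0.30 to 0.18. NDUFA4 was long counted with complex I before it was assigned to complex IV. It had 3930.2, 4987, 3058 and 3542 normalized counts in untreated and 3210.0, 3941, 2800.4 and 2587 in treated cells of horses D, J, L and W. All horses had lower treated values, and the groups overlapped. The log2 change of NDUFA4 was -0.30 (standard error 0.09), and its limma adjusted p of 0.0463 was the nearest to the threshold of the 11 called members. It rose to 0.0520 in edgeR with the horse and to 0.266 in limma without the block.

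NDUFA4L2, a hypoxia-induced relative of NDUFA4, had the largest change of the 78 members and was not called. Its untreated values were 3178, 1777, 3788 and 3741, and its treated values were 10378, 8298, 3191 and 10247 in horses D, J, L and W. The treated library of horse L lay within the untreated range while the other 3 treated libraries lay above all untreated ones. The log2 change was 1.28 (95% interval 0.30 to 2.27, limma adjusted p = 0.0589), the difference was -0.25 in horse L and 2.22 in J, and without horse L the change was 1.79 (limma adjusted p = 0.00835). DESeq2 with the horse called it at an adjusted p of 0.00396. Of the other subunits of complex IV, COX4I1, the ubiquitous form of subunit 4, had -0.14 with values below 0 in all horses, COX5A had 0.18 with -0.28 in horse J and up to 0.51 in the others, and COX5B had -0.07. Without horse J COX5A was called higher (0.33, limma adjusted p = 0.0435). COX6A1 had -0.10 and COX6B1 0.03, the latter at -0.29 and called lower with libraries scaled to equal totals. COX7A2L, which helps complexes III and IV to associate, had -0.18 (interval -0.39 to 0.04). The muscle or tissue-restricted forms COX4I2, COX6A2 and COX7A1 were not analysed here.

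Complex V makes ATP. With the deposited normalization and all 4 horses none of its 17 subunits was called by limma or by edgeR, 2 had an unadjusted p below 0.05 in limma, and DESeq2 with the horse, which called 19.4% of all tested genes higher, called 1 of them, ATP5PB, higher. With libraries scaled to equal totals limma called 10 of the 17 lower, and 2 with FN1, COL1A1 and COL1A2 left out of the totals. Under these scalings 35.2% and 23.5% of all tested genes were called lower. The changes ran from -0.21 to 0.25. Among the subunits of the catalytic head the median was -0.04, in the proton-carrying c-ring 0.15, in the peripheral stalk 0.01 and among the small membrane subunits -0.05. ATP5F1A and ATP5F1B, the alpha and beta subunits that together form the catalytic sites, had changes of different sign. ATP5F1A had 22801, 27071, 18301 and 17967 normalized counts in untreated and 18886, 20596, 18163 and 18291 in treated cells, a change of -0.16 (95% interval -0.44 to 0.11). ATP5F1B went from 21301, 34354, 22875 and 20852 to 24902, 29864, 25651 and 27212, a change of 0.14 (interval -0.17 to 0.46). For both genes the interval includes 0, and ATP5F1C, the rotating gamma subunit, had -0.04.

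The 3 genes for the c subunit encode the same mature protein with different import signals. ATP5MC1 had a change of 0.20, ATP5MC2 of -0.07 and ATP5MC3 of 0.15, all with intervals that include 0, and ATP5MC1 was called higher without horse J (0.31, limma adjusted p = 0.0403). ATP5PB, of the peripheral stalk that keeps the head from turning, had 5463, 6366, 5204 and 4572 normalized counts in untreated and 6605, 7257, 5682 and 6017 in treated cells. It was higher in all 4 horses, and its change of 0.25 (interval 0.04 to 0.45) had a limma adjusted p of 0.0719. ATP5MPL, a small membrane subunit, had the lowest change of the complex, -0.21 (interval -0.42 to -0.00245), with values below 0 in all horses.

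ATP5IF1, the inhibitor that stops complex V from running in reverse, had a change of -0.16 (95% interval -0.43 to 0.12). ATP5S, known as coupling factor B, was called lower. Its untreated values were 466, 432, 417 and 592 normalized counts in horses D, J, L and W, and its treated values were 345, 238, 340.3 and 304. The groups did not overlap, with the highest treated value, that of horse D, below the lowest untreated value, that of horse L. ATP5S fell by 35.6% (log2 change -0.64, standard error 0.16, limma adjusted p = 0.0337).

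Genes that work beside the complexes were read from lists chosen by role. Among factors that assemble the complexes and fall outside the member rule, 2 of 11 for complex I were called (1 higher, 1 lower), 1 of 4 for complex II, 1 of 5 for complex III and 1 of 4 for complex V (all 3 lower), and 5 of 18 for complex IV (2 higher, 3 lower). The shares were 18.2%, 25%, 20%, 25% and 27.8% for complexes I, II, III, V and IV, beside 30.9% of all tested genes. Lists of 4 or 5 genes are too short to read such shares as a difference. SDHAF4, an assembly factor of the SDHA subunit, had a log2 change of -0.44 (limma adjusted p = 0.0332). For complex IV, CMC1 and COA4 were lower at -0.61 and -0.58, and CMC2 was higher at 0.56. Of the 17 genes for mobile electron carriers and for exchange of nucleotides and phosphate, 5 were called higher and 1 lower, with a median of 0.22. That is 35.3% called, beside 30.9% of all tested genes. Limma called 1 higher and 1 lower without horse D, and 1 higher and 0 lower without W. Without J the counts were 7 higher and 2 lower, and without L 3 higher and 1 lower. CYCS, cytochrome c itself, rose from 1244, 3158, 2679.8 and 1365 normalized counts to 3895, 4714, 4943 and 5469 in horses D, J, L and W. Its log2 change was 1.28 (standard error 0.25, limma adjusted p = 0.0171), while the subunits of complexes III and IV, between which it travels, had medians of 0.15 and -0.09. SLC25A4, an exchanger of ADP for ATP, had a log2 change of 1.78 (limma adjusted p = 0.00583), and VDAC3, a channel of the outer membrane, one of 0.71 (limma adjusted p = 0.0339).

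The tricarboxylic acid cycle supplies NADH to complex I and shares complex II. Of its 13 listed enzymes outside the members, 5 were called, or 38.5%, all lower, with a median of -0.19, where 30.9% of all tested genes were called and 15.3% were called lower. Limma called 0 of the 13 without horse D and 0 without horse W, 4 lower and 3 higher without J, and 4 lower without L. IDH3B, a subunit of the NAD-dependent isocitrate dehydrogenase, had the largest change of these, -0.60 (limma adjusted p = 0.00819, or 0.0574 without the block), and DLST and SUCLG2 had -0.48 and -0.47. Without the block 1 of the 5 enzymes was called. Among 12 genes for the entry of pyruvate, 2 were called higher and 4 lower, or 50%, beside 30.9% of all tested genes. Limma called 0 higher and 1 lower without D and without W, 2 and 3 without J, and 1 and 2 without L. PDK4, a kinase that switches off pyruvate dehydrogenase, had a log2 change of -4.97 (limma adjusted p = 0.00100), and PDK1, another such kinase, one of 1.06 (limma adjusted p = 0.00864). Of 28 hypoxia and glycolysis genes, 16 were called higher and 4 lower, or 71.4%, with a median of 0.58. Limma called 7 of them higher without D and 7 without W, 15 without J and 13 without L, with 4 lower each time. Of 17 regulators of mitochondrial biogenesis 3 were called higher and 2 lower, or 29.4%, with a median of 0.13. Without D and without W limma called 1 of these higher and 0 lower, without J 4 and 2, and without L 1 and 1. The 73 mitochondrial ribosomal proteins had a median of 0.02, with 4 called higher and 6 lower, or 13.7%, beside 30.9% of all tested genes.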

How the data were processed

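Poly(A)-selected RNA of 4 untreated and 4 TGF-β2-treated cultures was sequenced. The authors used Trimmomatic 0.36 for trimming and STAR 2.5.2b for alignment to EquCab 3.0, counted unique hits per gene with featureCounts (Subread 1.5.2) and deposited DESeq2-normalized counts, a signal that is never negative. The deposited signal values of each library were whole multiples of the value of 1 read, so reads were recovered (100% whole, tolerance 0.01). In the table, 1 of 15267 rows had no gene name, held 0.0281% to 0.0531% of the signal and was left out. A floor of 3 reads equals 2.02 to 3.60 normalized counts. Such limits cover counting error only.

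Genes with at least 10 normalized counts in 4 of 8 libraries (14907) were tested on log2(normalized count + 1) in R 4.3.3 by limma 3.58.1 with an intensity trend and the horse as a block, since each horse's cultures came from 1 marrow. Deviations from group means correlated at 0.386 to 0.609 within horses and at -0.400 to 0.116 between horses. The paper's methods name no term for the horse. Since unique hits were counted, genes with near-identical copies are uncertain. edgeR 4.0.16 and DESeq2 1.42.0 on recovered reads, other scalings, filters and pseudocounts, no block and each horse left out were alternatives. Procedures were tested on simulated data. Members, lists and tests were chosen with earlier results of these data known. Named were all called members, the extremes of each complex, core subunits, isoform groups and, per list, up to 3 called genes with the largest change. Genes named beyond that were chosen after their values were seen. Gene symbols are those of the table. Coordinates and sequences were not used here. One item covered by the rule is included in counts and medians and is otherwise not reported here.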

Additional observations from a re-analysis of the deposited data

Results flagged for a closer look

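In groups of 4 libraries, a library was singled out when its gap to the nearest other value, divided by the range of the group, exceeded Dixon's 95% critical value. Over the 78 members and both treatments 156 groups were examined, and 5 passed, where chance gives about 1 in 20. The number that passed was no larger than that rate gives. The rate holds for independent groups, and these groups share the same libraries, so the count decides nothing about a single library. All 5 were the untreated library of horse J standing above the other untreated libraries. ATP5F1B, the catalytic beta subunit of complex V, had 34354 normalized counts there and 20852 to 22875 in the other 3. ATP5MC1, a c subunit of complex V, had 3319 against 1741 to 1949.9. NDUFAF4, an assembly factor of complex I, had 359.5 against 264 to 268. NDUFS1, an iron-sulfur core subunit of complex I, had 4405 against 3012 to 3166. NDUFV2, its neighbor in the electron-input part, had 8647 against 3365 to 4136, and its treated value in the same horse, 3969, lay beside those of the other treated libraries, 4114 to 4308. The cause of the high values in this library was not tested.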

How the results depend on the processing

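With the replicate block (the pairing by horse) left out, limma called 5 members lower, where the paired model called 10, and 1 higher in both. With total scaling the counts were 0 higher and 47 lower, 24 were lower with total scaling without FN1, COL1A1 and COL1A2, and DESeq2 called 3 higher and 13 lower. At an adjusted p under 0.01, 0 were higher and 1 lower, SDHD, against 10.2% of all tested genes. Leaving out single horses gave 0 to 6 higher and 0 to 6 lower. With the added threshold of an absolute log2 change over 1, 2 members passed under total scaling, 1 under total scaling without the 3 matrix genes, 1 with DESeq2, and 0 to 2 with a horse left out. Total scaling moved the medians of complexes I to V to -0.39, -0.67, -0.17, -0.40 and -0.33, and scaling without the 3 genes moved that of complex V to -0.19, where the median gene moved by -0.30 and -0.17. COX6B1 turned to -0.29 under total scaling. For 37 named members over 17 alternatives, 545 values kept sign and call, or were uncalled in both settings (20 of these with another sign), 50 lost and 33 gained a call, and 1 reversed. SDHD was called in 15 of 16 alternatives at the 0.05 level, NDUFV1 and NDUFV3 in 14, SDHA and ATP5S in 13, NDUFAF2 and NDUFB3 in 12, NDUFA10 and NDUFAF3 in 10 and NDUFA4 in 9. The cause of these shifts was not tested. Each member had at least 177 reads in every library. The median width of the 95% interval on the log2 scale was 0.54 over the 78 members and 0.79 over all tested genes.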

Other observations

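Markers of other cells were read beside the members, in short lists, where limma called 30.9% of all tested genes. Of 5 skeletal and cardiac muscle genes tested, 2 were called higher, ACTA1 at a log2 change of 4.59 (limma adjusted p = 0.0160) and DES at 4.46 (limma adjusted p = 0.00531). ACTA1 was uneven among horses, with 81.0, 46.0, 1904 and 1559 normalized counts in treated cells of D, J, L and W. The muscle-type subunit isoforms of complex IV were not analysed here. KDR, 1 of 2 endothelial markers tested, was called higher at 2.27, at 40.7 normalized counts or fewer in any library. Of 3 adipocyte genes, ADIPOQ was called higher at 3.12 and LPL lower at -0.67. Of 7 stromal genes, THY1, PDGFRB and ENG were called lower at -2.21, -0.71 and -0.42, and ITGB1 higher at 0.91. Of 18 proliferation genes, TYMS was called, lower, at -1.16, and the median of the list was 0.30.

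Within the hypoxia and glycolysis list the called genes moved both ways. CA9, a carbonic anhydrase, the glucose transporter SLC2A1 and BNIP3, a receptor for removal of mitochondria, were higher at 2.07, 1.97 and 1.71, whereas ADM, EGLN3 and EPAS1 were lower at -2.55, -1.90 and -1.68. HIF1A itself was higher at 0.67 (limma adjusted p = 0.0198). Among the 78 members NDUFA4L2, also known as a target of HIF1A, had the change of 1.28 that horse L did not share. NDUFA4L2 was not called by limma, and a link between the 2 genes was not tested. Of the regulators of mitochondrial biogenesis, PPRC1, POLRMT and POLG were higher at 0.90, 0.71 and 0.49, and GABPA and MTERF1 were lower at -0.66 and -0.69. NRF1 and TFAM, which act on nuclear and on mitochondrial genes of the chain, respectively, were not called, at -0.01 and 0.11.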
